A study of Homo sapiens with 4 samples.

Results

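PIEZO1 and PIEZO2 are the 2 PIEZO channel genes, and they were taken by gene name from tables that list 26485 gene names. The pair was proposed with these data in view and was chosen by the FPKM of PIEZO2, which rose from near 0 in both cell lines, so that rise is given here as a description and supports nothing further. Each name had 1 row in each table, so both members were measured in all 4 libraries. PIEZO proteins form large trimeric cation channels that open when the membrane is stretched or indented, and the calcium that enters then acts on calmodulin, calpains and calcineurin. PIEZO1 is widely expressed, in endothelium, red blood cells and many epithelia, while PIEZO2 is best known from touch-sensing Merkel cells, sensory neurons and enterochromaffin cells.

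SW1736 and 8505C are established human cell lines derived from anaplastic thyroid cancer (ATC). Each was sequenced once as parental wild-type cells, sensitive to paclitaxel and here called wt, and once as a resistant derivative, called PTX. Paclitaxel is a taxane that stabilizes microtubules. The derivatives were selected over 6 months, with doses climbing from 1 nM to 1.5 µM, and stayed in medium with 1.5 µM paclitaxel, so that the PTX libraries come from cells with both a selection history and drug in the medium. All 4 libraries came from cells in the same RPMI-1640 medium with serum, and nothing states how many clones founded a derivative.

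Expression was measured as FPKM, the fragments aligned to a gene, scaled to the length of its transcript and to the number of fragments aligned in the library. Where 4 values follow each other, they are in the order SW1736 wt, SW1736-PTX, 8505C wt and 8505C-PTX. The estimated depth lay between 43.5 and 57.8 M reads per library, and each derivative was sequenced more deeply than its parental cells. Every condition has a single library (n = 1), so within a line no difference could be set against the spread between cultures, and the values of each line are given without a test. The intervals given below cover counting error only. The thyroid follicular markers TG, TSHR and SLC5A5 were at or near 0 in every library, whereas the keratins KRT7, KRT8 and KRT18 and the mesenchymal intermediate filament gene VIM were between 257 and 3684 FPKM. The epithelial marker EPCAM went the other way, with 0, 0, 0.0806 and 0.0720 FPKM. The library labelled SW1736-PTX stood apart from its parental line in lineage factors. The FPKM values of PAX8 were 38.2, 0.206, 0.123 and 0.146, and those of NKX2-1 were 0, 36.3, 30.5 and 39.0. Across 14692 genes, Pearson's r of log2(FPKM + 0.1) was 0.767 between SW1736-PTX and SW1736 wt and 0.873 between SW1736-PTX and 8505C wt. It was highest between the PTX libraries, at 0.933, and was 0.845 between the wt libraries and 0.877 between 8505C wt and 8505C-PTX. The PIEZO genes, the counts over the channel, associated-protein, calcium and neighbour lists and most of the genes called in SW1736 are therefore also given with 8505C wt as the reference, as is 8505C-PTX with SW1736 wt as the reference where a call ended or turned. The origin of the SW1736-PTX library was not tested, so the lines may not be independent of each other.

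PIEZO1 lies on the minus strand of chromosome 16 at 88715338 to 88785220 (hg38, as in the tables), a span of 69.9 kb, and its reference transcript in GENCODE release 44 has 51 exons and 8089 bases. PIEZO2 lies on the minus strand of chromosome 18 at 10670247 to 11148762 in the tables, a span of 478.5 kb, and its reference transcript has 56 exons and 10859 bases. That transcript begins 807 bases upstream of the start that the tables use for PIEZO2. The promoter windows are shown because 1 member was close to silent in both wt libraries and the other was not. Each window runs from 250 bases before to 50 bases after the start and is written 5′ to 3′ on the gene's own strand. Capitals mark the matches to 5 motifs searched on both strands. The GC box was searched as GGGCGG. The TATA box was searched as TATAAA and the CCAAT box by its name. The AP-1 motif was searched as TGANTCA. The TEAD motif was searched as GGAATG, and no match overlapped another in these windows. The first and second windows come from RefSeq on GRCh38.p14, at chr16:88785171-88785470 and chr18:11149520-11149819, and the last was read from hg38 at chr18:11148713-11149012, around the start used in the tables.
PIEZO1 promoter: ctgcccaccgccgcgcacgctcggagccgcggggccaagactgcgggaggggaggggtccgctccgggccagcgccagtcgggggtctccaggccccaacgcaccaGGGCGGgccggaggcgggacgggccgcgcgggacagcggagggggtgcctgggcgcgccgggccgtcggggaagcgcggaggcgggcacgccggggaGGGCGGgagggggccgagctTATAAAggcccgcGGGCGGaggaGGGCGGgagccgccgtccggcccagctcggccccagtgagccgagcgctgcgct
PIEZO2 promoter: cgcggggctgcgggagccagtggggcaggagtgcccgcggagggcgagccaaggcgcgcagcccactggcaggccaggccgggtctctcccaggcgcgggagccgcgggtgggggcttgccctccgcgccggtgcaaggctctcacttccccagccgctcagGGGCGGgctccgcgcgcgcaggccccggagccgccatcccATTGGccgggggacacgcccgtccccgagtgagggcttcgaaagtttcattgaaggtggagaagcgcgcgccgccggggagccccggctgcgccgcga
PIEZO2 window at the start in the tables: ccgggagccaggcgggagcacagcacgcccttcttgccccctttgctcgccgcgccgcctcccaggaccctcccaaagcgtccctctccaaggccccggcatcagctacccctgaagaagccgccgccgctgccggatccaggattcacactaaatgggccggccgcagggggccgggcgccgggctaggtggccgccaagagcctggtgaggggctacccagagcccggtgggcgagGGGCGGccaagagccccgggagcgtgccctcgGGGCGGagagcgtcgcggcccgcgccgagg

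All 3 windows were rich in G and C. The PIEZO1 window had 81.0% G and C and 44 CpG dinucleotides, the upstream PIEZO2 window 76.7% and 38, and the window around the deposited start had 74.7% and 32. The medians over 35116 RefSeq promoters were 58.7% and 14. The PIEZO1 window held 4 GC boxes and 1 TATA box, which began 27 bases upstream of the start. The upstream PIEZO2 window held 1 GC box and 1 CCAAT box on the opposite strand, printed as ATTGG, and the other held 2 GC boxes. Of all promoters, 45.0% held a GC box, 11.5% a TATA box and 34.6% a CCAAT box. TGANTCA and GGAATG were in none of the 3 windows, and in 7.71% and 14.0% of all promoters. Such matches describe letters and not sites.

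PIEZO2 was close to silent in wt cells and among the more abundant mRNAs in resistant cells. It stood at 0.00281 FPKM in parental SW1736 and at 30.4 FPKM in its derivative, and at 0.320 FPKM in parental 8505C and at 29.0 FPKM in its derivative. Both wt libraries were thus far below both PTX libraries, and the PTX values lay close together. In SW1736 wt the value corresponded to about 1.49 reads on the reference transcript, or 1.13 reads on a shorter coding transcript of 8259 bases, which is below the 0.00565 FPKM that 3 reads would give. In 8505C wt it corresponded to about 151 reads, so PIEZO2 mRNA was low but detected there. The paper lists PIEZO2 among the top up-regulated genes of 8505C-PTX, but as unexpressed in parental 8505C. The 0.320 FPKM used here differs from that entry, and the reason is not known. In SW1736-PTX and 8505C-PTX the estimates were 19121 and 16854 reads. By level, PIEZO2 ranked 16072 of 26485 names in SW1736 wt and 12994 in 8505C wt, but 2446 in SW1736-PTX and 2487 in 8505C-PTX. The median of names above 0.5 FPKM was between 8.64 and 9.81 FPKM in these libraries.

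**Figure D1:**
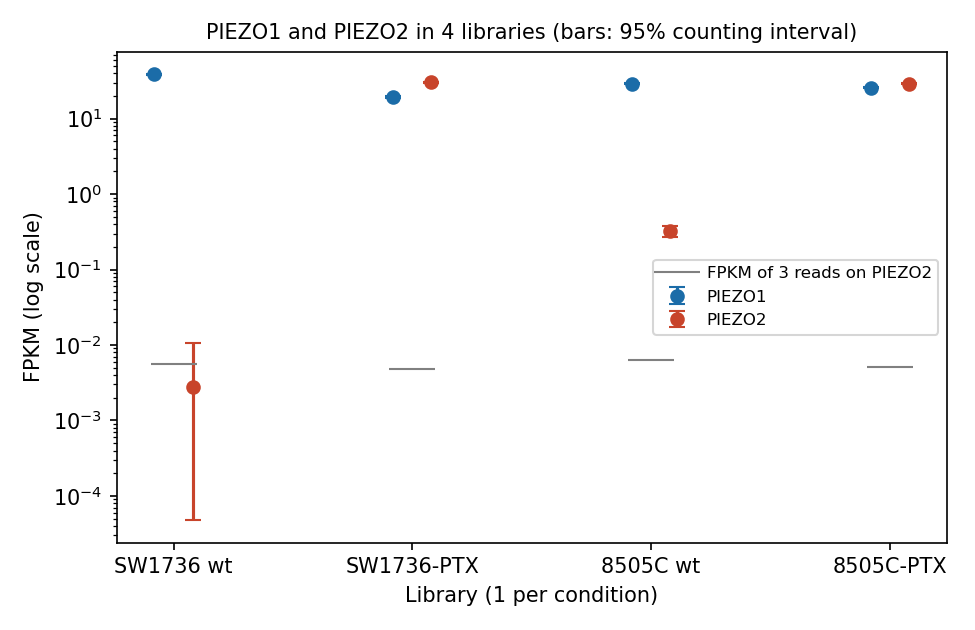
FPKM of PIEZO1 and PIEZO2 (log axis) in each of the 4 libraries, with bars for the 95% counting interval and grey dashes for the FPKM that 3 reads on PIEZO2 would give. PIEZO1 stays between 19.4 and 38.6 FPKM, while PIEZO2 goes from 0.00281 and 0.320 in wt libraries to 30.4 and 29.0 in PTX libraries.

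The ratio of PIEZO2 in 8505C-PTX to that in 8505C wt was 90.4 (95% exact counting interval 77.3 to 107). In SW1736 the ratio was 10841, but it rests on about 1 read in SW1736 wt, and its interval ran from 2900 to 638243. On the scale of log2(FPKM + 0.1), where changes of weakly expressed genes come out too small, the differences were 8.21 in SW1736 and 6.11 in 8505C. A gene entered a comparison when 1 or both of its libraries exceeded 0.5 FPKM, and it was called up- or down-regulated beyond 1.5 on this scale. With these limits PIEZO2 was called up-regulated in both lines. Among all genes compared, 15.7% were called up-regulated in SW1736-PTX and 15.0% in 8505C-PTX, and 7.37% of the 13304 genes compared in both lines were up-regulated in both. By the smaller of its changes in the 2 lines PIEZO2 ranked 8 of those 13304. Together with PIEZO2, 3 other names were below 0.5 FPKM in both wt libraries and above 20 in both PTX libraries, the drug efflux pump gene ABCB1, the alkaline phosphatase gene ALPPL2 and WFDC21P.

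Against 8505C wt, SW1736-PTX held 94.9 times as much PIEZO2 (81.1 to 112), a difference of 6.18 on the log2 scale, and was again called, as were 15.1% of the genes compared. With 8505C-PTX set against SW1736 wt, where 16.7% were called up-regulated, the difference was 8.14. Both values follow from the levels that chose the gene. Between the wt libraries, PIEZO2 in 8505C exceeded that in SW1736 by a ratio of 114, with an interval of 30.0 to 6748. Between the PTX libraries the ratio of SW1736-PTX to 8505C-PTX was 1.05 (1.03 to 1.07). The order of the levels was thus SW1736-PTX, 8505C-PTX, 8505C wt and SW1736 wt. Whether the PTX libraries differ by more than separate cultures would was not tested. In bulk RNA, more cells with PIEZO2 and more PIEZO2 mRNA per cell cannot be told apart.

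PIEZO1, the paralog, was well expressed in all libraries and was not called in either line. Its FPKM was 38.6 for SW1736 wt, 19.4 for SW1736-PTX, 28.9 for 8505C wt and 25.8 for 8505C-PTX, which corresponds to between 9066 and 15294 reads. SW1736 wt was the highest and SW1736-PTX the lowest, and the libraries of 8505C lay between them. The ratio of PTX to wt was 0.501 in SW1736 (0.488 to 0.514) and 0.893 in 8505C (0.869 to 0.917). On the log2 scale these were differences of -0.99 and -0.16, inside the limit of 1.5. The share of compared genes with a change larger than that of PIEZO1, in either direction, was 40.6% in SW1736 and 86.9% in 8505C. The share called down-regulated was 10.2% in SW1736 and 5.89% in 8505C. Against 8505C wt, SW1736-PTX had a PIEZO1 ratio of 0.669 (0.650 to 0.688), a log2 difference of -0.58. PIEZO1 was therefore lower in SW1736-PTX than in either wt library by more than counting error. In a limma fit over the 4 libraries and 14692 genes, with the cell line as a block and 1 residual degree of freedom, the mean log2 fold change of PIEZO1 was -0.58 with a standard error of 0.43 and a Benjamini-Hochberg adjusted p of 0.496, lower in 2 of 2 lines. This fit was added after the data had been seen, and it called 0 genes at an adjusted p of 0.05, while 2661 had an unadjusted p below 0.05.

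Since FPKM is scaled to transcript length, the channels were compared with each other within a library. The annotation behind these lengths is not given in the sources used here, so modest differences between genes are uncertain. The share of PIEZO2 in the summed PIEZO FPKM was 0.00726% for SW1736 wt and 1.10% for 8505C wt, against 61.1% for SW1736-PTX and 52.9% for 8505C-PTX. In PTX cells PIEZO2 was at 1.57 times the PIEZO1 level in SW1736-PTX and at 1.12 times in 8505C-PTX. The summed level was 38.6, 49.8, 29.2 and 54.8 FPKM in the order above, higher in each derivative than in its parental cells. Expression in wt cells was almost entirely PIEZO1, whereas resistant cells expressed both genes at levels of the same order.

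Other channels that respond to force, or that were proposed to, were described from a list of 39 genes. All 39 were in the tables, 12 were at or below 0.5 FPKM in every library, and 24 were compared in each line. In SW1736, 6 of 24 were up-regulated and 3 down-regulated, with a median log2 fold change of 0.25 beside 0.01 over all genes compared. In 8505C, 7 of 24 were up-regulated and 1 down-regulated, with a median of 0.58 beside 0.11. Over all genes compared, 15.7% and 15.0% were up-regulated and 10.2% and 5.89% down-regulated. Against 8505C wt, where 15.1% of all genes compared were up-regulated, 6 channels were up-regulated and 0 down-regulated in SW1736-PTX. Against SW1736 wt, where 16.7% were up-regulated, 8 channels were up-regulated and 5 down-regulated in 8505C-PTX. The share of all genes down-regulated is not given for these comparisons, so their down counts cannot be weighed.

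The list holds 5 genes called the same way in both lines, 4 up-regulated and 1 down-regulated. Of the 13304 genes compared in both lines, 7.37% were up-regulated in both. TMEM120A, which encodes a membrane protein proposed to sense force (TACAN), had FPKM values of 15.3, 61.8, 6.38 and 26.7. The acid-sensing ion channel gene ASIC1 had values of 1.72, 17.1, 5.33 and 25.8. Each PTX library exceeded both wt libraries for these genes. The related ASIC3 was lower, with 0.414, 2.74, 0.0529 and 0.546 FPKM. TRPC6, a calcium-permeable channel gated by diacylglycerol, was listed at 0 in SW1736 wt, followed by 1.50, 0.164 and 0.898 FPKM. With 8505C wt as the reference for SW1736-PTX, these 4 genes kept their calls, with log2 differences of 3.26 for TMEM120A, 1.66 for ASIC1, 4.21 for ASIC3 and 2.60 for TRPC6. With SW1736 wt as the reference for 8505C-PTX, ASIC1 and TRPC6 kept theirs with 3.83 and 3.32, and TMEM120A and ASIC3 lost theirs with 0.80 and 0.33. The list's single call of a decrease in both lines was KCNMA1, the pore-forming subunit of the large-conductance calcium-activated potassium channel, with 49.9, 6.58, 14.7 and 1.69 FPKM. Of all genes compared in both lines, 2.41% were down-regulated in both. The log2 fold changes of KCNMA1 were -2.91 and -3.05, and -1.14, inside the limit, when SW1736-PTX was set against 8505C wt, and -4.81 when 8505C-PTX was set against SW1736 wt.

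**Figure D2:**
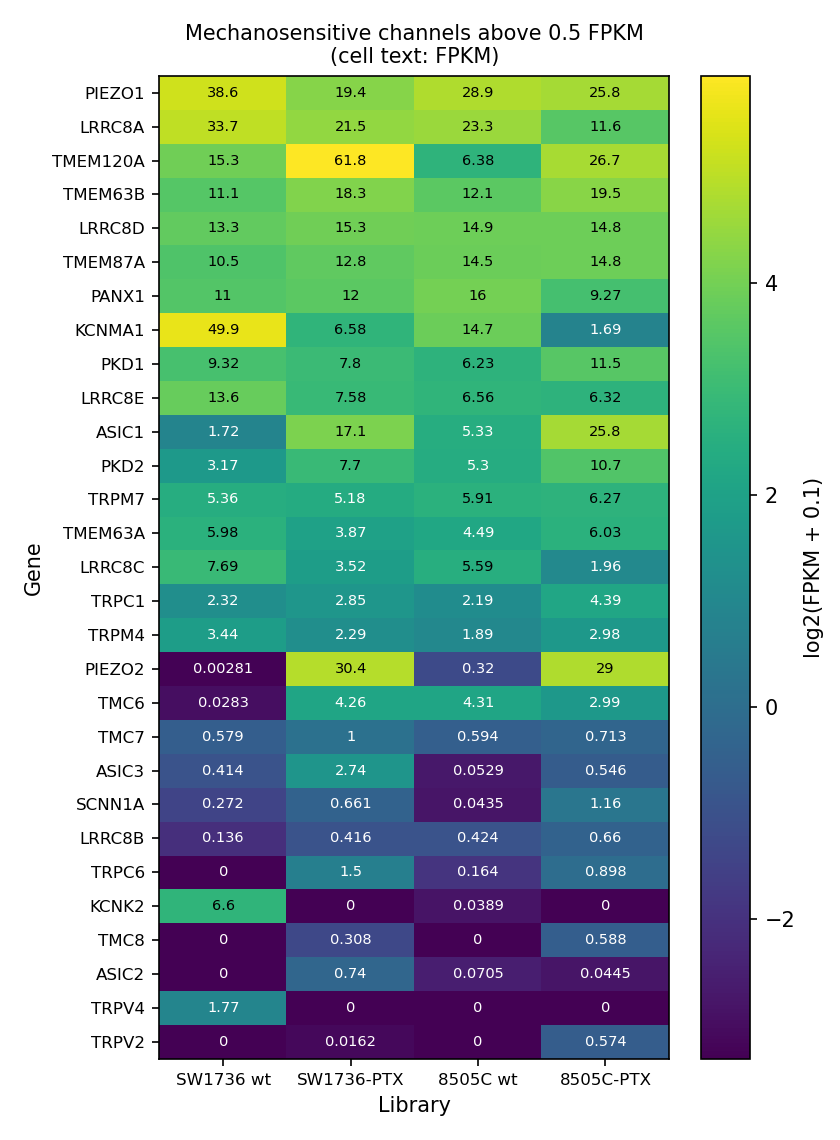
FPKM (cell text) and log2(FPKM + 0.1) (colour) of PIEZO1, PIEZO2 and the 27 other mechanosensitive channel genes above 0.5 FPKM in at least 1 of the 4 libraries, ordered by mean log2 level. PIEZO2 changes from the dark end of the scale in wt columns to the bright end in PTX columns, while the PIEZO1 row runs only from 19.4 to 38.6.

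Other channels changed in 1 line. The potassium channel gene KCNK2 had 6.60 FPKM in parental SW1736 and was listed at 0 in the derivative. TRPV4, a calcium-permeable channel opened by cell swelling, had 1.77 FPKM in parental SW1736 and was likewise listed at 0 in the derivative. Both were already at or near 0 in 8505C wt, with 0.0389 and 0 FPKM. TMC6, of the transmembrane channel-like family, rose from 0.0283 to 4.26 FPKM in SW1736, but was at 4.31 FPKM in 8505C wt. For KCNK2, TRPV4 and TMC6, SW1736-PTX thus lay near 8505C wt. SCNN1A, a subunit of the epithelial sodium channel, was called in 8505C, from 0.0435 to 1.16 FPKM, and went from 0.272 to 0.661 in SW1736 without a call. With the wt libraries exchanged it was called up-regulated in both derivatives. Its log2 difference was 2.41 for SW1736-PTX against 8505C wt and 1.76 for 8505C-PTX against SW1736 wt.

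The levels of these 41 channel genes were ranked within each library. Ranks of genes with close levels are uncertain, since the transcript lengths used for FPKM are not known. PIEZO1 was the second most abundant in SW1736 wt, after KCNMA1, and the first in 8505C wt. PIEZO2 ranked 30 in SW1736 wt and 21 in 8505C wt. In SW1736-PTX it was second after TMEM120A, and in 8505C-PTX it was first, ahead of TMEM120A, ASIC1 and PIEZO1, which were between 25.8 and 26.7 FPKM. PIEZO1 ranked 4 in both PTX libraries.

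**Figure D3:**
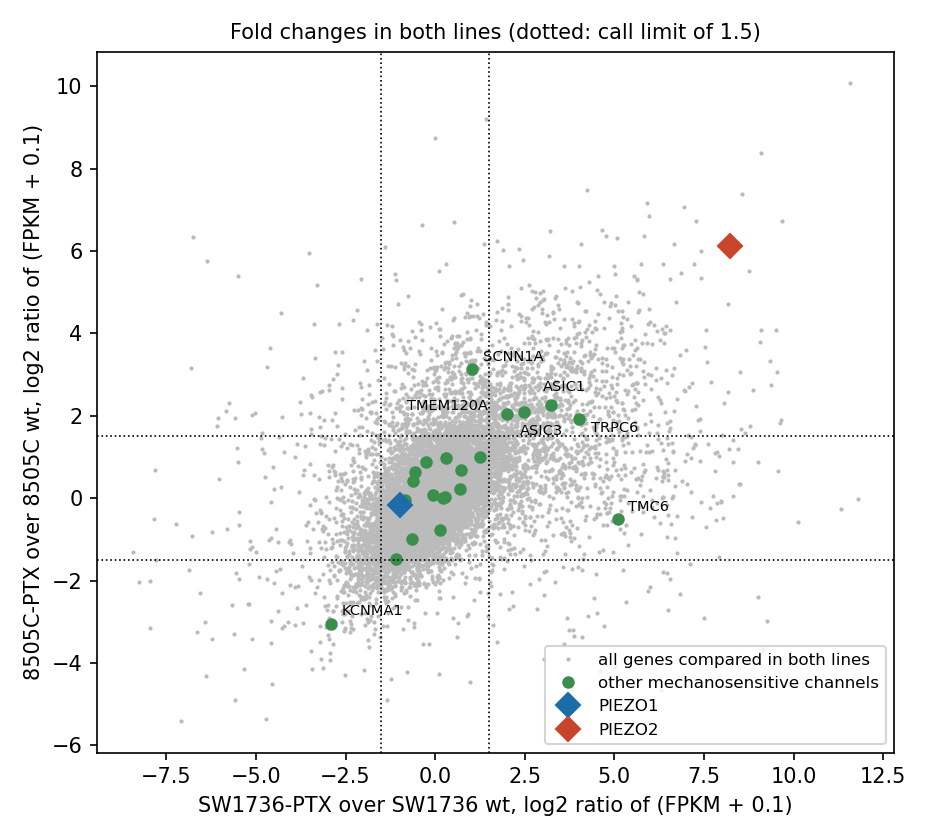
Log2 ratio of (FPKM + 0.1), PTX over wt, in SW1736 (x axis) and 8505C (y axis) for the 13304 genes compared in both lines, with the other mechanosensitive channels in green and the PIEZO genes as diamonds. PIEZO2 lies to the upper right at 8.21 and 6.11, and PIEZO1 lies within the limits at -0.99 and -0.16.

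Genes for proteins that bind PIEZO channels or alter their gating were taken as a list of 16. Of these, 11 were compared in SW1736 with 1 up-regulated and 1 down-regulated, and 12 in 8505C with 1 up-regulated and 0 down-regulated. The shares over all genes compared were 15.7% and 10.2% in SW1736, and 15.0% and 5.89% in 8505C. No gene was called in both lines, beside 7.37% of all genes up-regulated and 2.41% down-regulated in both. With 11 and 12 genes compared, a count of 0 cannot be told apart from these shares. In SW1736-PTX against 8505C wt, 1 gene was called up-regulated, beside 15.1% of all genes compared. The median log2 fold changes were -0.29 and -0.25, beside 0.01 and 0.11 over all genes compared. MDFIC, which encodes an auxiliary subunit of PIEZO channels, had FPKM values of 7.08, 2.16, 5.73 and 3.30, lower in both PTX libraries and called in SW1736 with a log2 fold change of -1.67. Against 8505C wt its difference in SW1736-PTX was -1.37, inside the limit. STOM, which encodes the membrane scaffold protein stomatin, rose from 8.62 to 77.7 FPKM in SW1736 and went from 20.7 to 48.4 in 8505C, where its log2 fold change of 1.22 was not called. STOM was the gene called in SW1736-PTX against 8505C wt, with 1.90, and 8505C-PTX against SW1736 wt was also called, with 2.48. STOML3, the stomatin-like protein that sensitizes PIEZO channels in sensory neurons, was listed at 0 in all 4 libraries. TMEM150C, a modulator of mechanically activated currents, was called in 8505C, from 0.0649 to 0.526 FPKM.

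The cadherin complex, which is known to tether PIEZO1 to the actin cytoskeleton, was represented by beta-catenin and vinculin but hardly by E-cadherin. CDH1 reached at most 0.0277 FPKM, while CTNNB1, which encodes beta-catenin, had 79.6, 83.6, 90.3 and 118 FPKM. VCL, which encodes vinculin, had 79.9, 43.9, 49.6 and 32.5 FPKM, a difference that stayed inside the limit in each line. The actin cross-linker FLNA (551, 254, 204 and 201 FPKM) and the caveola protein CAV1 (385, 252, 329 and 143 FPKM) were the most abundant genes of the list in every library and were not called.

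A list of 32 genes covered calcium handling and calcium-dependent signalling, the step that follows channel opening. In SW1736, 3 of 31 compared were up-regulated (9.68%, beside 15.7% of all genes) and 2 down-regulated (6.45%, beside 10.2%), with a median log2 fold change of -0.37 beside 0.01 over all genes. In 8505C, 3 of 30 were up-regulated, beside 15.0% of all genes, and 0 down-regulated, beside 5.89%, with a median of 0.09 beside 0.11. Against 8505C wt, where 15.1% of all genes compared were up-regulated, 3 were up-regulated and 0 down-regulated in SW1736-PTX. CAMK2D, a subunit of calcium/calmodulin-dependent kinase II, rose in both lines, with FPKM values of 4.82, 24.0, 12.8 and 37.0. NFATC2, a transcription factor activated by calcineurin, rose by log2 fold changes of 1.56 and 2.41 from lower levels, 0.680 FPKM in SW1736 wt and 0.0285 in 8505C wt. Against 8505C wt, NFATC2 in SW1736-PTX kept its call with a log2 difference of 4.16, and CAMK2D did not, with 0.90. Against SW1736 wt, CAMK2D in 8505C-PTX kept its call with 2.91, and NFATC2 did not, with -0.19.

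The other calcium genes were called in 1 line. ITPR1, which encodes an IP3 receptor that releases calcium from the endoplasmic reticulum, rose from 0.133 to 2.27 FPKM in SW1736. The sodium/calcium exchanger gene SLC8A1 fell from 6.67 to 1.23 FPKM in SW1736, and RCAN1, a calcineurin inhibitor that NFAT factors induce, fell from 14.7 to 3.25. Against 8505C wt none of ITPR1, SLC8A1 and RCAN1 passed the limit in SW1736-PTX, with log2 differences of 0.76, 0.84 and -1.18. ORAI3, a store-operated calcium channel subunit, rose from 1.22 to 11.6 FPKM in 8505C and went from 4.26 to 2.29 in SW1736. Against SW1736 wt its log2 difference in 8505C-PTX was 1.42, inside the limit. The calpain genes CAPN1 and CAPN2 were between 44.9 and 164 FPKM in every library and were not called.

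Markers of cells in which PIEZO2 is known were low. Of 14 genes of Merkel cells, sensory neurons and enterochromaffin cells, 9 were at or below 0.5 FPKM in every library, and the defining genes ATOH1, KRT20 and INSM1 were listed at 0 in all 4. The summed FPKM of the list was 2.25, 7.59, 1.28 and 2.69, higher in each derivative than in its parental cells. ISL1, a transcription factor of Merkel cells and sensory neurons, had the highest level of the list, with 1.08, 3.25, 1.03 and 0.327 FPKM, and its log2 fold changes of 1.50 and -1.40 were not called. The stem cell and Merkel cell factor SOX2 was listed at 0 in both wt libraries and had 0.762 and 1.32 FPKM in the derivatives. The neuronal intermediate filament gene PRPH had 0, 0.753, 0.0999 and 0.596 FPKM. Both were up-regulated by the limits used, at levels far below the 29.0 FPKM or more of PIEZO2, and their part in the rise of PIEZO2 was not tested. RET, a receptor tyrosine kinase, rose in SW1736 from a listed 0 to 2.29 FPKM, and the neurotrophin receptor gene NTRK2 fell there from 0.710 to 0.121 FPKM. Against 8505C wt, RET in SW1736-PTX kept its call with a log2 difference of 4.43, and NTRK2 turned to 1.15 without a call.

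Of 9 markers of endothelium, red blood cells and leukocytes, in which PIEZO1 is prominent, 6 were at or below 0.5 FPKM in every library. The T cell marker CD3E was listed at 0 in all 4, and KDR and VWF reached at most 0.0380 and 0.0860 FPKM. CDH5, which encodes VE-cadherin, stood out with 0, 0.225, 55.9 and 4.53 FPKM, high in parental 8505C and called down-regulated in its derivative, which against SW1736 wt was instead higher by 5.53 on the log2 scale. For this gene SW1736-PTX lay far from 8505C wt, with a log2 difference of -7.43, called down-regulated. The monocyte marker CD14 rose in 8505C from 0.576 to 4.50 FPKM. The summed level of the list was between 0.920 and 56.8 FPKM, and the highest sum, in 8505C wt, was almost all CDH5.

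Genes within 1 Mb of PIEZO2 were described as well. Of 16 other names, 7 were compared in SW1736 with 2 up-regulated and 0 down-regulated, and 8 in 8505C with 3 up-regulated and 0 down-regulated. The shares over all genes compared were 15.7% up and 10.2% down for SW1736, and 15.0% up and 5.89% down for 8505C. The median log2 fold changes were -0.02 in SW1736 and 1.09 in 8505C, beside 0.01 and 0.11 over all genes compared. GNAL, which encodes a stimulatory G protein subunit and starts 540.3 kb from PIEZO2, was the only neighbour called in both lines, with FPKM values of 0.226, 1.92, 0.133 and 3.04. APCDD1, a membrane-bound Wnt inhibitor, was listed at 0 in both wt libraries and had 0.468 and 1.18 FPKM in the derivatives, with a call in 8505C. RAB31, a small GTPase of vesicle transport, rose from 17.6 to 58.3 FPKM in SW1736 and went from 23.7 to 57.3 in 8505C, a log2 fold change of 1.27 that was not called. IMPA2, an inositol monophosphatase, rose from 0.558 to 12.1 FPKM in 8505C but had 22.5 FPKM in parental SW1736 and 8.74 in its derivative. VAPA and NAPG, which flank the same side as APCDD1, had log2 fold changes between -0.65 and -0.10 in both lines.

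The log2 fold changes of the neighbours compared ran from -1.35 to 2.63 in SW1736 and from -0.42 to 4.21 in 8505C. PIEZO2 had been chosen for its change, so its own values are no comparison with theirs. The microRNA gene MIR6788 lies inside PIEZO2 on the same strand and reached at most 0.113 FPKM. Against 8505C wt, where 15.1% of all genes compared were up-regulated, 2 neighbours of PIEZO2 were up-regulated in SW1736-PTX. These were GNAL with a log2 difference of 3.12 and IMPA2 with 3.75. Against SW1736 wt, GNAL in 8505C-PTX kept its call with 3.27, and IMPA2 turned to -0.89 without a call. RAB31 in 8505C-PTX gained a call there with 1.70, while in SW1736-PTX against 8505C wt it had 1.29 and no call.

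**Figure D4:**
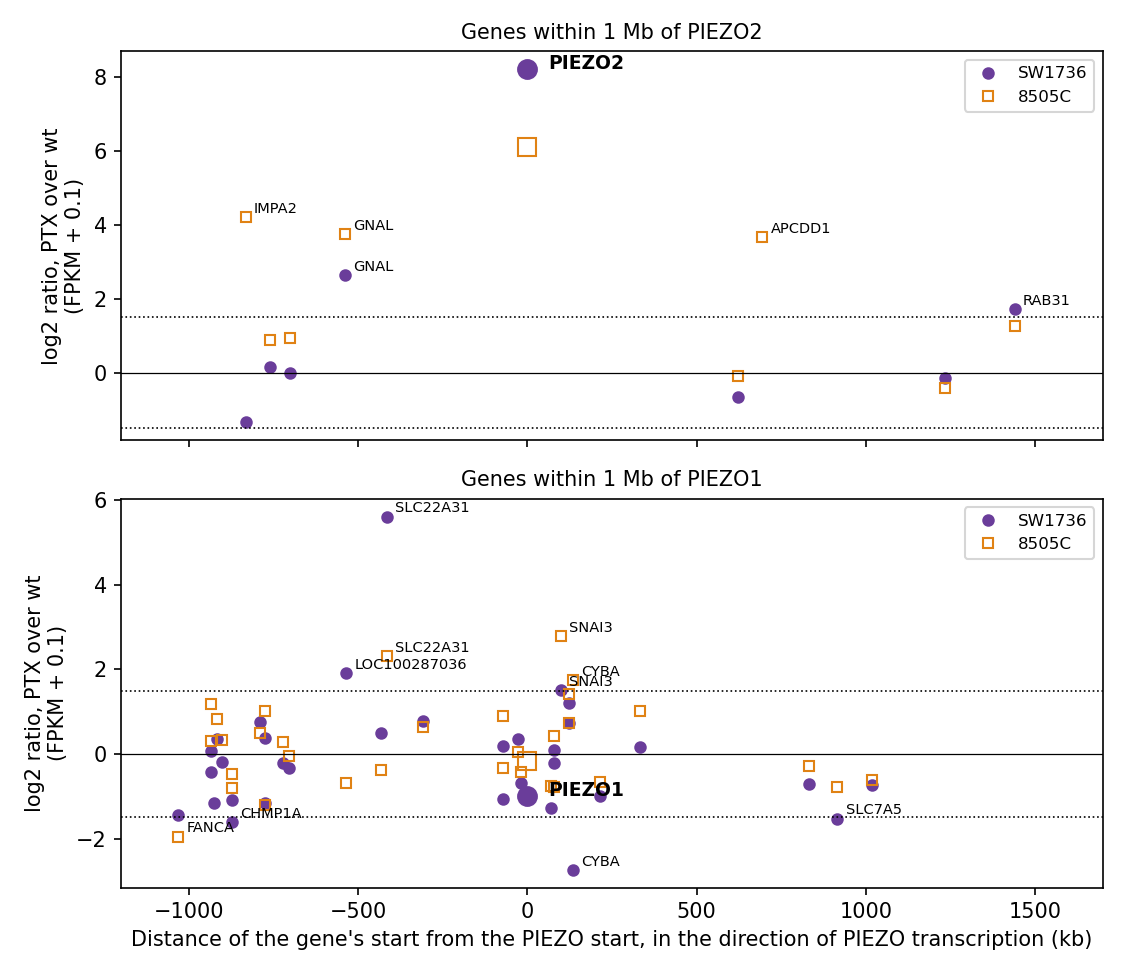
Log2 ratio of (FPKM + 0.1), PTX over wt, of the genes compared within 1 Mb of PIEZO2 (top) and PIEZO1 (bottom), against the distance between gene starts in kb. Filled circles are SW1736 and open squares 8505C, larger symbols mark the PIEZO gene itself, and genes beyond the dotted limit of 1.5 are named. PIEZO2 is drawn at 8.21 and 6.11, and PIEZO1 at -0.99 and -0.16 lies among its neighbours.

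Around PIEZO1, 33 of 51 names were compared in SW1736 with 3 up-regulated and 3 down-regulated, and 32 in 8505C with 3 up-regulated and 1 down-regulated, beside the same shares over all genes. The median log2 fold changes were -0.20 and 0.16. PIEZO1, with -0.99 and -0.16, lay inside the range of its neighbours, which was -2.74 to 5.61 in SW1736 and -1.96 to 2.80 in 8505C. CYBA, which encodes the p22phox subunit of NADPH oxidase, had FPKM values of 106, 15.7, 15.2 and 51.3, so it fell in SW1736 and rose in 8505C. SNAI3, a Snail family transcription factor, had 0.215, 0.793, 0.0852 and 1.19 FPKM, and SLC22A31, of the organic ion transporter family, had 0, 4.79, 0.171 and 1.24, with calls in both lines. In SW1736 the log2 fold change of SNAI3 was 1.502, barely past the limit and from low levels, and that of SLC22A31 was 5.61. Both kept their calls against 8505C wt, with log2 differences of 2.27 and 4.17. They were the 2 neighbours of PIEZO1 called up-regulated there, beside 15.1% of all genes compared. FANCA, a subunit of the Fanconi anaemia core complex, fell in 8505C from 18.7 to 4.75 FPKM.

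The 3′ end of PIEZO1 overlaps that of CTU2, a gene of tRNA thiolation on the opposite strand, by 41 bases, so few reads could have been shared. CTU2 had 17.8, 15.4, 16.5 and 9.63 FPKM and was not called. The antisense genes LOC100289580 and LOC339059 lie inside PIEZO1 and reached at most 0.233 and 0 FPKM, and the microRNA gene MIR4722, on the same strand as PIEZO1, was between 0.995 and 3.39 FPKM. Whether strand was used in the counting is not given in the sources used here, so reads of these genes and of PIEZO1 could not be told apart.

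The genes most like each PIEZO gene were found by the distance between centred profiles of log2(FPKM + 0.1) over the 4 libraries, among 14692 genes above 0.5 FPKM in at least 1. Nearest to PIEZO2 was COL3A1, which encodes the alpha chain of type III collagen, at a distance of 0.59. The FPKM values of COL3A1 were 0.132, 99.8, 1.17 and 58.1. No other gene lay within a distance of 1, and the profile of PIEZO2 itself had a length of 7.31. Next came ALPPL2 at 1.03, the aldo-keto reductase gene AKR1C1, WISP2 (CCN5), which encodes a secreted matricellular protein, and HLA-F, a nonclassical HLA class I gene, at 1.18. ALPPL2, AKR1C1, HLA-F and, for PIEZO1, UPK3BL have close paralogs that can share reads, so their levels are less certain. Each of the 5 was higher in both PTX libraries than in both wt libraries, as the profile of PIEZO2 requires.

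PIEZO1 had a short profile. Its own length was 0.71, and 5777 genes lay within a distance of 1. That distance exceeds the length, so genes without any change are counted too. The number therefore does not say how common the pattern of PIEZO1 is. The 5 nearest were ACAA1, a peroxisomal thiolase, at 0.06, UPK3BL at 0.07, the long noncoding RNA gene TUG1 and the ubiquitin ligase gene UBR3 at 0.08 each, and PSPH, an enzyme of serine synthesis, at 0.09. The FPKM values of ACAA1 were 21.5, 10.7, 16.7 and 14.9. Each of the 5 was lowest in SW1736-PTX, and their log2 fold changes in 8505C lay between -0.25 and -0.12.

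**Figure D5:**
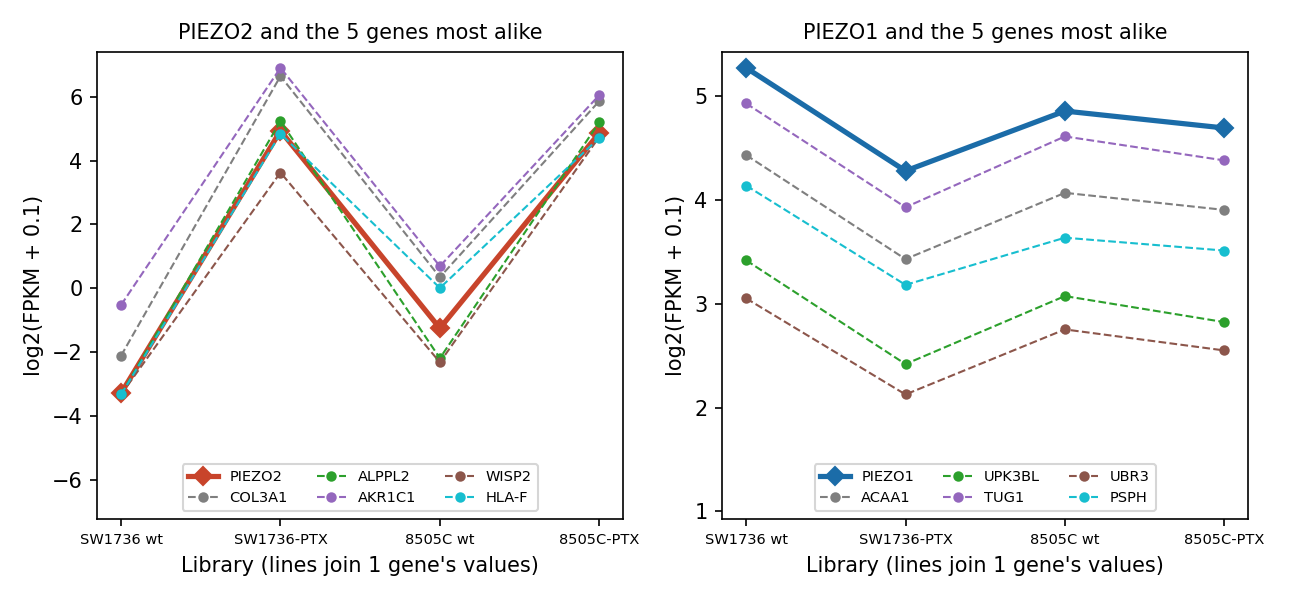
Levels as log2(FPKM + 0.1) in the 4 libraries of PIEZO2 (left) and PIEZO1 (right) with the 5 genes whose centred profiles lie nearest. On the left all 6 genes are low in wt and high in PTX libraries, and on the right all 6 are highest in SW1736 wt and lowest in SW1736-PTX, within a range of about 1 on the log2 scale.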

How the data were processed

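mRNA libraries of 4 samples (SW1736 wt, SW1736-PTX, 8505C wt, 8505C-PTX) were sequenced as single-end reads of 75 bp, and samples were grouped by their titles. According to the methods and the submitters' processing notes, the authors used bcl2fastq 2.20, Cutadapt, ERNE, STAR on hg38 and StringTie; the annotation is not given in the sources used here. The deposited tables hold read coverage per base (not scaled to depth), FPKM and TPM per gene, all made by the authors; there are no read counts.

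FPKM rows of a name were summed. Calls used log2((PTX + 0.1)/(wt + 0.1)), limits of 1.5 and of 0.5 FPKM in at least 1 library. Reads were estimated as coverage times transcript length (GENCODE release 44) over 75, with depth from coverage over FPKM, which gave 43.5 to 57.8 M reads, and 95% intervals were exact binomial (ratios) or Poisson (levels), for counting error only. Named genes were those called in both lines, up to 4 others per list, the 4 most changed and the overlapping neighbours within 1 Mb, and the 5 nearest profiles; levels of other list members were added after their values were seen. The members and lists were chosen with earlier results of these data known. The scripts for calls and for a limma fit over both lines with the cell line as a block (log2(FPKM + 0.1), added after the data had been seen) were tested on simulated data. Alternatives changed the pseudocount, unit, limits, row handling, centring and wt library. Python 3.11.15, NumPy 2.4.6, pandas 2.3.3, SciPy 1.17.1, matplotlib 3.10.9, R 4.3.3 and limma 3.58.1 were used. Levels of some list members are not reported here.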

Additional observations from a re-analysis of the deposited data

Results flagged for a closer look

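Of the genes named, 2 were called in opposite directions in the lines, a difference that was not tested since each line has 1 library per condition. CYBA, a neighbour of PIEZO1, had a log2 fold change of -2.74 in SW1736 and 1.75 in 8505C. FN1, which encodes fibronectin and was read as a mesenchymal marker, had -3.45 and 1.56. Against 8505C wt, SW1736-PTX had log2 differences of 0.05 for CYBA and 0.17 for FN1, so neither decrease was called with that wt library. Against SW1736 wt, 8505C-PTX had -1.04 for CYBA, without a call, and -2.07 for FN1, called down-regulated, so both increases turned with that wt library.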

How the results depend on the processing

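Each of 14 results was recomputed under 10 alternatives, and 100 of the 140 values stayed within the counting interval or within 1.5 times the count. Part of this tally was fixed in advance. Other FPKM minima and other call limits act on calls, so they could not alter a PIEZO fold change. Nor could taking the highest row only, since each PIEZO name has 1 row. PIEZO2 kept its call and PIEZO1 stayed uncalled wherever both libraries of a pair were not required to pass 0.5 FPKM, a rule under which PIEZO2 could not be compared, since its wt values were below it. The log2 fold change of PIEZO2 was 4.97 in SW1736 and 4.50 in 8505C with a pseudocount of 1, 11.2 and 6.45 with 0.01, 9.30 and 6.28 with TPM, and 6.18 and 8.14 with the wt library of the other line. That of PIEZO1 in SW1736 was -1.04 with TPM and -0.93 after centring on the median, and with the other wt library it was -0.58 in both SW1736 and 8505C.

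Counts of called genes are small and moved more, in the order SW1736 and 8505C where both are given. They pool up and down calls. A changed pseudocount, FPKM rule or limit alters the calls of all genes, and the shares of all genes under these settings are not given here. The counts therefore describe the settings and not the lists. With a pseudocount of 1, the other channels had 5 and 3 calls, PIEZO-associated genes 1 and 0, calcium genes 1 in 8505C, and neighbours of PIEZO2 1 in SW1736 and of PIEZO1 2 in 8505C. With 0.5 FPKM required in both libraries, the channels had 3 and 3, PIEZO-associated genes 0 in 8505C, neighbours of PIEZO2 1 and 1, and of PIEZO1 3 and 2. With a limit of 1, PIEZO-associated genes had 4 and 3, calcium genes 8 and 7, and neighbours of PIEZO1 13 and 9. With a limit of 2, PIEZO-associated genes had 1 and 0, neighbours of PIEZO2 1 in SW1736 and of PIEZO1 2 and 2. With the wt library of the other line, PIEZO-associated genes had 1 and 2, calcium genes 3 and 5, channels 13 in 8505C, and neighbours of PIEZO1 2 in SW1736. The lines were also taken as pairs, in a limma fit with the cell line as a block that was added after the data had been seen. It called 0 of all 14692 genes fitted at an adjusted p of 0.05, so its count of 0 for any list was fixed and says nothing about the lists. By the fold limit, 5 of the channels, 2 of the calcium genes and 0 PIEZO-associated genes had been called in both lines. The depth limits the PIEZO2 ratio in SW1736, which rests on about 1 read.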
